A study of Homo sapiens with 8 samples.

Results

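The genes described here serve the copying of DNA: the factors that license replication origins, the helicase and enzymes of the replication fork, the enzymes that supply deoxynucleotides, and a group of regulators. A list of 40 such genes, cyclins left out, was matched by symbol to the named probe sets of the arrays, and 24 were found among 14884 named genes. Where a gene had more than 1 probe set, the one with the highest mean level was read, which concerned 2 of the 24, GINS4 and CLSPN. The 16 listed genes with no named probe set, among them the ORC subunits, GMNN, the replicative polymerases and their primase, the RFC subunits and LIG1, were not analysed here. The 24 measured genes were grouped as 10 licensing genes, 5 genes of the CMG helicase, PCNA and FEN1 of the clamp and lagging strand, 3 genes of nucleotide supply and 4 regulators. These groups are broad, since the first holds MCM8 and MCM10 and the last CLSPN and UHRF1, whose own roles are given below.

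RNA came from A673 and SK-ES1, established human cell lines of Ewing sarcoma, a tumour of bone and soft tissue in which EWSR1 is fused to an ETS gene such as FLI1. In both lines a short hairpin targeted RING1B (shRING1B) or, as the control, GFP (shGFP), and each of the 4 groups has 2 arrays. All 4 groups therefore carry a hairpin, and the labels name only its target. They do not state whether more than 1 hairpin sequence was used per target or how it was introduced. Nor do they state for how long it acted, or whether cells were pooled or cloned. RING1B is a ubiquitin ligase of Polycomb repressive complex 1, which marks histones and helps to keep developmental genes silent. RING1B's own RNA level was not analysed here and could not serve as a check of the labels. The labels do not say whether replicates are separate cultures, and the p-values therefore measure only the spread between these arrays, which may be technical.

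Replication is licensed in G1, when the origin recognition complex, CDC6 and CDT1 load the MCM2 to MCM7 ring onto DNA in an inactive form. At the start of S phase CDC45 and the GINS complex join the ring to make the active CMG helicase, and PCNA then holds the polymerases on their template. Most of these genes are transcribed in late G1 and S phase under E2F factors, which bind TTTCCCGC-like sites, and pocket proteins such as RB1 hold E2F back before that. Their RNA level in a bulk sample thus depends on the share of cells in S phase as well as on the level per cell, and these cannot be told apart here.

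Values are deposited log2 expression values (RMA, a method that corrects background, equalises the distribution of the arrays and summarises probes), so a difference of 1 is a 2-fold difference. The equalising step takes out a change that most genes share. Array medians over all probe sets lay between 4.01 and 4.1, and arrays of 1 group correlated at 0.9911 to 0.9937 across genes. The Ewing sarcoma markers that were measured included CD99 at 11.4 to 12.3 and NKX2-2 at 7.5 to 8.4 as group means. BCL11B, IL1RAP, JAK1, KDSR and STEAP1 of that list lay between 7.1 and 10.7. CCK and GLI1 of the same list were lower, at 4.3 to 5.5 and 5.1 to 5.4. The leukocyte markers CD14 and LYZ lay between 3 and 3.5 and CD68 between 7.1 and 7.6, and the endothelial markers KDR, PECAM1 and VWF between 3.2 and 4.1. Of the fibroblast markers, LUM stood at 6.3 and 5.7 in the SK-ES1 groups and at 2.9 and 3.1 in the A673 groups. DCN stood at 4.2 in both SK-ES1 groups and at 3.4 and 3.5 in the A673 groups. The part of LUM and DCN in the differences between the lines was not tested. The 24 replication genes had mean levels from 6.69 to 10.2, each above the array medians. The median standard deviation between replicates over the 96 pairs of gene and group was 0.0535, and the largest was 0.399.

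The rule that lists these genes does not read promoter sequence, but the list holds E2F factors and genes described above as under E2F. A high share of E2F letters is therefore no independent result. Stretches before the annotated start are shown so that the E2F letters can be seen beside the values that follow. They come from RefSeq windows on GRCh38.p14 that run from 250 bases before to 50 bases after a gene's start, which were found for 21 of the 24 genes. The letters TTTCCCGC, TTTCGCGC, TTTGCCGC and TTTGGCGC were searched on both strands, and matches are in capitals. The stretches are written 5′ to 3′ on the gene's strand and end at the base before the start. CDT1, E2F1 and E2F2 are shown because they lead the values under the RING1B hairpin in A673, GINS2, TYMS and PCNA as members of other roles, UHRF1 because it differed between the lines, and MCM6 because it holds 4 matches in overlapping pairs. CDC45 and FEN1 have no match in the window.
CDT1 (chr16:88803689-88803788, + strand): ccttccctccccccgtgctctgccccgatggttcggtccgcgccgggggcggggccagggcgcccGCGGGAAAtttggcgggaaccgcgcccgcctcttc
E2F1 (chr20:33686386-33686485, - strand): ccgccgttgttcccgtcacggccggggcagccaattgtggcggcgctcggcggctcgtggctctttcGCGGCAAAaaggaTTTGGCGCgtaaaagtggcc
E2F2 (chr1:23531234-23531333, - strand): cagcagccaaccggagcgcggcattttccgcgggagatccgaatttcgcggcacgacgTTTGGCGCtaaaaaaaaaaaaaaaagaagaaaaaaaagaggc
GINS2 (chr16:85688955-85689054, - strand): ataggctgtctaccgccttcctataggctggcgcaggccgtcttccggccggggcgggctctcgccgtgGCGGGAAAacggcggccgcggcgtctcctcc
TYMS (chr18:657553-657652, + strand): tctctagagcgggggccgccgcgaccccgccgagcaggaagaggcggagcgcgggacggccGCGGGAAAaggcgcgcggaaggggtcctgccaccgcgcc
PCNA (chr20:5126623-5126722, - strand): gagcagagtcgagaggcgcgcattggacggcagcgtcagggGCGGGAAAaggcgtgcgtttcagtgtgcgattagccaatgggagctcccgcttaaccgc
UHRF1 (chr19:4909401-4909500, + strand): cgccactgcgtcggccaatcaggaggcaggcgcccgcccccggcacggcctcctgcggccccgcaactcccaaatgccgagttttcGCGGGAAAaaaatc
MCM6 (chr2:135876444-135876643, - strand): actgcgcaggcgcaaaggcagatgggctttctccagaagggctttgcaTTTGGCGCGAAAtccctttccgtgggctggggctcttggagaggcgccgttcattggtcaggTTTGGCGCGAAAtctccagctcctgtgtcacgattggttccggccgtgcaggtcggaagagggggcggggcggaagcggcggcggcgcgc
CDC45 (chr22:19479820-19479919, + strand): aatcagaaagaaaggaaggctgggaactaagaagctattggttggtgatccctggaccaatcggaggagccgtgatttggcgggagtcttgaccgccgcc
FEN1 (chr11:61792811-61792910, + strand): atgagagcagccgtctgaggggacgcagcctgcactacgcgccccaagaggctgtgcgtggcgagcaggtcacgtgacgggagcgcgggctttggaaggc

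Of the 21 windows, 16 (76.2%) held an E2F match, against 4.49% of the 10749 windows of genes tested on the arrays and 3.33% of all 27305 windows. Where a gene has several annotated starts, the first listed window was used. With any window of a gene counted, the shares were 76.2% of the 21 genes and 5.38% of the genes tested. Base composition differs little between these sets, with a median GC content of 65% over the 21 windows and 63.3% over the windows tested. Among the 7149 tested windows within the GC range of the 21, 5.67% held a match. In 14 of the 16 genes a match began within 60 bases before to 20 bases after the start, and the other two were MCM6 and MCM8. Overlapping matches were counted apart, as in MCM6, where each capital stretch holds a match on either strand.

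Other motifs were counted in the same way. CCAAT, the letters bound by NF-Y, occurred in 71.4% of the 21 windows, 36% of the windows tested and 85.7% of 14 windows of mitotic genes. The CHR letters TTTGAA and TTTAAA, known from mitotic promoters, occurred in 9.52% of the 21 windows, 18.7% of those tested and 78.6% of the mitotic windows. GGGCGG, the GC box, occurred in 71.4%, 60.5% and 71.4% in the same order. Of 27 other replication genes with a window, 33.3% held an E2F match in it. The windows without an E2F match belong to MCM10, CDC45, RRM1, RRM2 and FEN1, which says only that these letters are not in these windows.

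**Figure D1:**
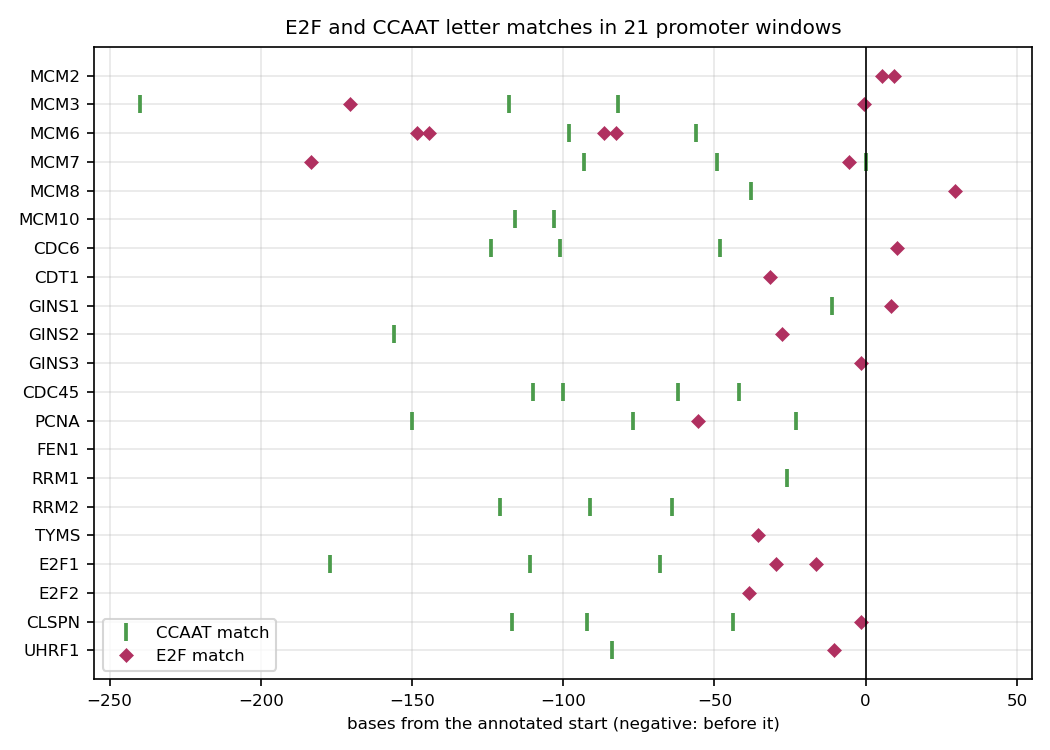
Position of E2F letter matches (diamonds) and CCAAT matches (bars) in 21 promoter windows, by distance in bases from the annotated start, 1 row per gene. In 14 genes an E2F diamond lies within 60 bases before to 20 bases after the start, and CCAAT bars lie mostly further upstream.

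In A673, CDT1 was the replication gene called higher under the RING1B hairpin, and 22 of the 24 genes had a log2 change above 0. CDT1 loads the MCM ring and is destroyed once S phase begins. It stood at 8.54 and 8.30 on the shGFP arrays and at 8.995 and 8.90 on the shRING1B arrays. The groups did not overlap, and the log2 change was 0.53 (standard error 0.121, 1.44-fold, limma adjusted p = 0.0449). This call, 1 of 24 (4.17%), is a share near the background, since limma called 3.74% of the 14884 genes, 0.705% higher and 3.04% lower. The call rests on the shared estimate of spread and on every array, since without A673 shGFP replicate 2 the change was 0.40 (adjusted p = 0.332) and it missed the threshold with any other single array left out as well (adjusted p = 0.0568 to 0.155). Over all alternatives its adjusted p ran from 0.00308 to 0.332. The 10 nearest measured protein-coding genes along chromosome 16, from MVD to ZNF778 in the order of GRCh38.p14, all lay above 0 in A673 as well, with a median change of 0.23 and none called. These neighbours were chosen after the values were seen, and their part in the CDT1 value was not tested.

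The genes next in order of p were regulators and a helicase subunit. E2F2, an activating E2F factor, stood at 6.99 and 6.92 on the A673 shGFP arrays and at 7.42 and 7.44 on the shRING1B arrays, a log2 change of 0.47 (limma adjusted p = 0.0563). E2F1, also an activating factor, stood at 8.04 and 7.72 against 8.37 and 8.38, a change of 0.49 (limma adjusted p = 0.0788). CDC45, which completes the CMG helicase, stood at 7.45 and 7.39 against 7.95 and 7.90, a change of 0.50 (limma adjusted p = 0.0819). In these 3 genes both shRING1B arrays lay above both shGFP arrays, and none passed the threshold. E2F3, a further activating factor kept on the list of other replication genes, had a mean of 7.43 under shGFP and 7.42 under shRING1B, a change of -0.02 (limma adjusted p = 0.955). E2F2, E2F1 and CDC45 passed the threshold with a trended and robust variance model (adjusted p = 0.0142, 0.0117 and 0.0151) and when only genes above the median signal were tested (0.0318, 0.0475 and 0.0498). These settings called 1052 and 767 of all genes in A673, against 557 as reported. MCM10, which helps to activate the helicase, stood at 8.59 and 8.35 against 8.80 and 8.87, a change of 0.37 (limma adjusted p = 0.132).

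No gene of the MCM ring was called under the hairpin in A673. MCM2 stood at 8.44 and 8.22 on the shGFP arrays and 8.65 and 8.61 on the shRING1B arrays, a change of 0.30. MCM5 stood at 9.12 and 8.93 against 9.35 and 9.27, a change of 0.28. Their limma adjusted p-values were 0.207 and 0.214, and their groups did not overlap. MCM3 stood at 9.72 and 9.68 against 9.80 and 9.77, and MCM4 at 8.82 and 8.83 against 8.85 and 8.85. MCM6 stood at 9.39 and 9.24 against 9.38 and 9.45, and MCM7 at 9.25 and 9.01 against 9.25 and 9.21. The groups of MCM6 and MCM7 overlapped, and the changes of MCM3, MCM4, MCM6 and MCM7 were 0.03 to 0.10. The 95% intervals of these 4 changes, without adjustment, reached at most 0.39, so a doubling lies outside each. MCM8, a relative of the ring subunits that acts in recombination repair, stood lower on both shRING1B arrays, at 10.15 and 10.22 against 10.34 and 10.33 (limma adjusted p = 0.581).

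None of the remaining genes in A673 was called, and the shRING1B arrays of most of them lay above the controls. Claspin (CLSPN), which couples the fork to the checkpoint, stood at 7.50 and 7.28 on the shGFP arrays and 7.68 and 7.67 on the shRING1B arrays. UHRF1, which guides maintenance methylation to new DNA, stood at 8.72 and 8.58 against 8.98 and 8.89. TYMS, the thymidylate synthase, stood at 9.79 and 9.62 against 9.93 and 10.02. The log2 changes of these 3 genes were 0.28, 0.29 and 0.27, with limma adjusted p-values of 0.247, 0.27 and 0.25. GINS2 stood at 8.82 and 8.26 on the shGFP arrays, the widest gap of any replication gene within a group, and at 8.93 and 8.89 on the shRING1B arrays. The ribonucleotide reductase subunits RRM1 and RRM2 each had a change of 0.15, PCNA 0.17 and FEN1, which trims Okazaki fragments, 0.10. CDC6, the partner of CDT1 in loading, had a change of 0.01 and GINS4 one of -0.02. Of the other GINS subunits, GINS3 had a change of 0.22 and GINS1 one of 0.08. The hairpin groups overlapped for CDC6, GINS1, GINS4 and FEN1, as they did for MCM6 and MCM7.

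**Figure D2:**
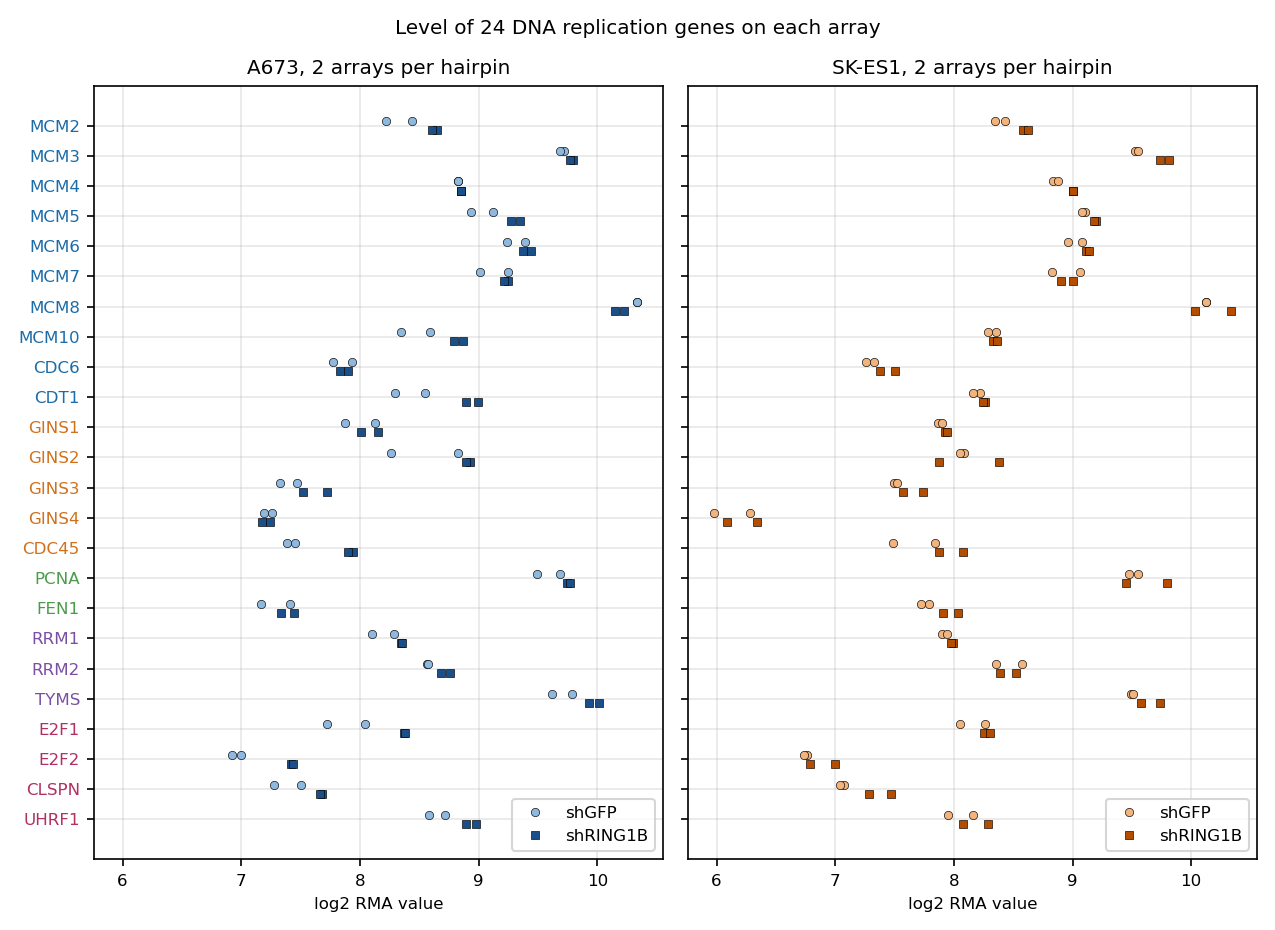
Level of each of the 24 replication genes on every array, as log2 RMA value, with A673 on the left and SK-ES1 on the right, circles for shGFP and squares for shRING1B. Gene names are coloured by role, with licensing in blue, CMG helicase in orange, clamp and lagging strand in green, nucleotide supply in purple and regulators in red. CDT1, E2F1, E2F2 and CDC45 show the widest gaps between hairpins in A673, and GINS4 lies about 1 unit lower in SK-ES1.

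Counted over arrays, 17 of the 24 genes (70.8%) had both A673 shRING1B arrays above both shGFP arrays and 1, MCM8, had both below. Over all genes these shares were 26% and 23.9%. The median change of the 24 genes in A673 was 0.196, against 0.0118 over all genes and 0.0222 over the 4012 genes at a mean level within the same range. The 24 were listed with results of these arrays known, so the list itself has no test. The gap between the control replicates was of like size. On A673 shGFP replicate 2, 21 of the 24 genes lay below replicate 1, with a median gap of -0.177, while over all genes 51.2% lay below, with a median of -0.0051. The mean level of the 24 was 8.51 and 8.34 on the shGFP arrays and 8.64 and 8.65 on the shRING1B arrays. Without shGFP replicate 2 the median change was 0.119 and 19 of 24 lay above 0, and without replicate 1 it was 0.28 with 22 above 0. Centring the arrays on 5 housekeeping genes, which moved the median of all genes in A673 to -0.104, left 15 of 24 above 0 and a median of 0.0805.

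In SK-ES1 no replication gene was called by limma under the RING1B hairpin, although 23 of the 24 had a log2 change above 0. The background there is 0.0672% of genes called, with 0% higher, and 1 of the 24 genes, CLSPN, had an unadjusted p under 0.05, as had 1095 of the 14884. CLSPN stood at 7.07 and 7.04 on the shGFP arrays and at 7.47 and 7.28 on the shRING1B arrays, a log2 change of 0.32 (limma adjusted p = 0.624). Its other probe set, at a mean level of 3.57 below the array medians, changed by -0.0012 in SK-ES1 and by 0.40 in A673. CDC45 stood at 7.84 and 7.49 against 7.88 and 8.08, a change of 0.31 (limma adjusted p = 0.683). MCM3 stood at 9.53 and 9.55 against 9.73 and 9.82, a change of 0.24, and MCM2 at 8.43 and 8.34 against 8.58 and 8.63, a change of 0.21. In each of these 4 genes the groups did not overlap, though the inner arrays of CDC45, at 7.84 and 7.88, nearly met. CDT1 stood at 8.22 and 8.16 against 8.26 and 8.25, a change of 0.06 with an unadjusted 95% interval of -0.21 to 0.33.

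The rest of the MCM ring in SK-ES1 gave MCM4 at 8.83 and 8.88 against 9.01 and 9.01, and MCM5 at 9.10 and 9.08 against 9.19 and 9.18. MCM6 stood at 9.08 and 8.96 against 9.11 and 9.14, and MCM7 at 9.07 and 8.83 against 9.004 and 8.90. MCM7 was the ring gene whose groups overlapped in SK-ES1. E2F1 stood at 8.26 and 8.05 against 8.26 and 8.30 and E2F2 at 6.76 and 6.74 against 6.79 and 6.998, changes of 0.13 and 0.14. GINS2, PCNA and MCM8 had shRING1B arrays on both sides of the controls, with GINS2 at 7.88 and 8.38 and PCNA at 9.45 and 9.80. The highest upper bound of any of the 24 intervals in SK-ES1 was 0.62, for CDC45.

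Both SK-ES1 shRING1B arrays lay above both controls in 15 of the 24 genes (62.5%), against 17.8% of all genes, and both lay below in none, against 19.3% of all genes. The median change was 0.119, against -0.0164 over genes at a like level. It was 0.178 without SK-ES1 shRING1B replicate 1 and 0.0815 without replicate 2, with 21 of 24 above 0 in both cases. In 11 of the 24 genes (45.8%) the shRING1B arrays lay above the controls in both lines, against 4.6% of all genes. These were MCM2, MCM3, MCM4, MCM5, CDT1, GINS3, CDC45, RRM1, TYMS, E2F2 and CLSPN, and no gene of the 24 lay below in both lines, against 5.38% of all genes. Some of these changes were small, such as 0.03 for MCM4 in A673 and 0.06 for both CDT1 and RRM1 in SK-ES1. Because the 24 were listed with results of these arrays known, these shares are no test of the list.

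**Figure D3:**
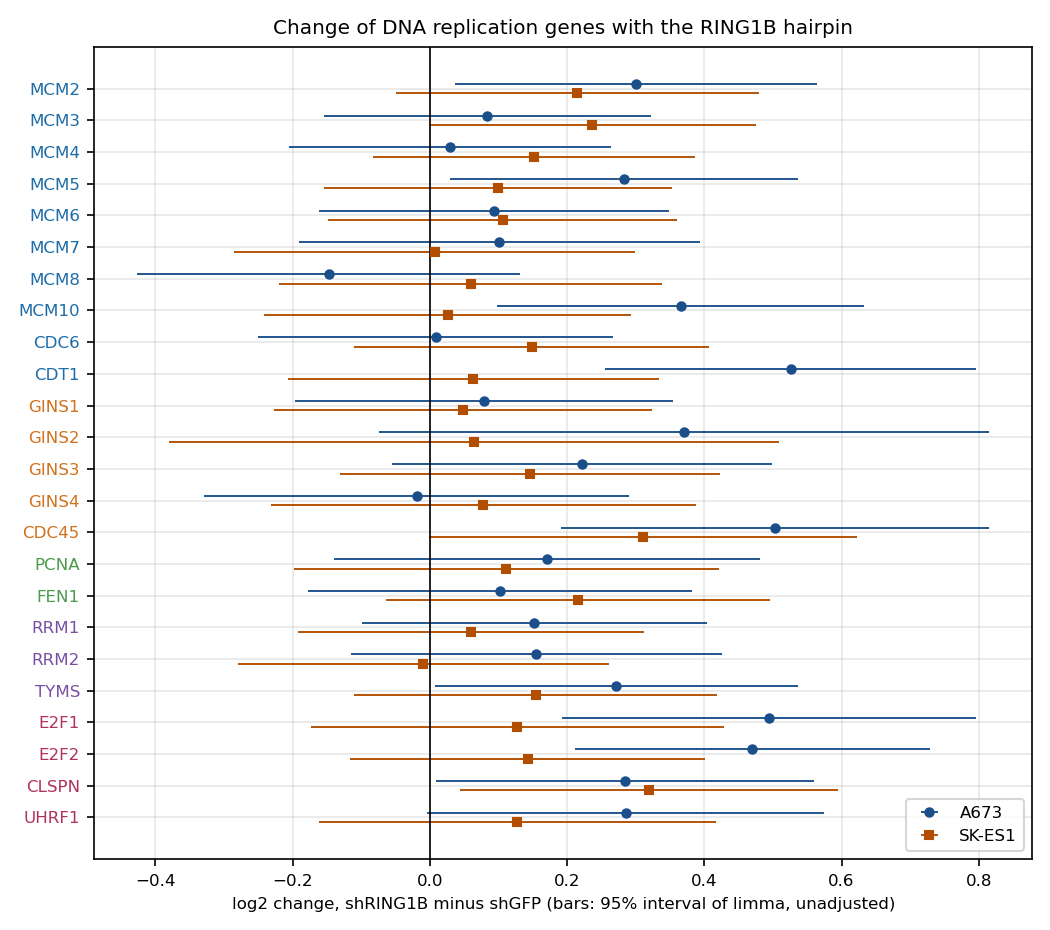
Log2 change with the RING1B hairpin for each of the 24 genes, with A673 as blue circles and SK-ES1 as orange squares, and bars for the 95% interval from limma without adjustment; gene names are coloured by role as in the plot of levels. In A673 9 intervals lie wholly above 0 and in SK-ES1 1 does, that of CLSPN on the probe set used. The intervals of the lines overlap for every gene. Of all 14884 genes, 1317 in A673 and 481 in SK-ES1 had a change above 0 with an unadjusted p under 0.05.

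The mean effect over both lines called none of the 24 genes with limma, against a background of 1.36% of all genes (0.114% higher), although 10 of the 24 had an unadjusted p under 0.05, as had 2151 of all 14884 genes. CDC45 came nearest, with a mean log2 change of 0.41 (limma adjusted p = 0.0864), and the mean changes of E2F1, E2F2, CLSPN and CDT1 were 0.31, 0.31, 0.30 and 0.29. With a trended and robust variance model 6 were called, namely MCM2, CDT1, CDC45, E2F1, E2F2 and CLSPN, and the calls over all genes went from 202 to 481. The difference of the effects, SK-ES1 minus A673, was not called for any of the 24 by limma, against 0.786% of all genes (0.161% lower), and 1 gene had an unadjusted p under 0.05, as had 2039 of all genes. That gene was CDT1, at -0.46 (limma adjusted p = 0.273), so a different response of the lines was not shown for it.

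Other genes of the replication machinery lay on both sides of 0. Of 55 further genes on a list of origin firing, checkpoint, repair and nucleotide enzymes, 33 were measured. In A673 none was called higher, and DSCC1, a subunit of an alternative clamp loader, was called lower by 0.72 (limma adjusted p = 0.0282). There 19 of 33 lay above 0 and the median was 0.0539. An unadjusted p under 0.05 was found for 11 of the 33, 7 higher and 4 lower, and for 2819 of all 14884 genes. In SK-ES1 none was called by limma, 14 of 33 lay above 0 and the median was -0.0135, with 1 gene at an unadjusted p under 0.05. The 3 highest values in A673, named after they were seen, were 0.52 for the repressor E2F8, 0.43 for the histone chaperone ASF1B and 0.36 for the pocket protein RBL1. The kinase CDC7, which fires licensed origins, had a change of -0.22 and its activator DBF4 one of -0.37. The checkpoint kinase CHEK1 had one of -0.37, and none of E2F8, ASF1B, RBL1, CDC7, DBF4 and CHEK1 passed the test.

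Genes of the other cell cycle phases were set beside them. Of 24 mitotic genes 17 were measured, none was called by limma in either line, and 1 in A673 and 0 in SK-ES1 had an unadjusted p under 0.05. Their median change was -0.0558 in A673 and -0.0218 in SK-ES1, with 8 and 4 of 17 above 0. Among 9 measured G1/S cyclins, kinases and inhibitors, CCNE1, which drives entry into S phase, fell by 1.24 in A673 (limma adjusted p = 0.0034). The D-type cyclin CCND2 fell by 1.04 (limma adjusted p = 0.0098) and the inhibitor CDKN2A by 0.61 (limma adjusted p = 0.048). The CDKN2A mean under shRING1B in A673 was 4.39, not far above the array medians. The list did not fall as a whole, since 5 of the 9 lay above 0 in A673, with a median change of 0.0079. An unadjusted p under 0.05 was found there for 1 higher and 4 lower. The higher one was the D-type cyclin CCND1, with a change of 0.37 that was not called (limma adjusted p = 0.144). None of the 9 was called by limma in SK-ES1, where 1 had an unadjusted p under 0.05.

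**Figure D4:**
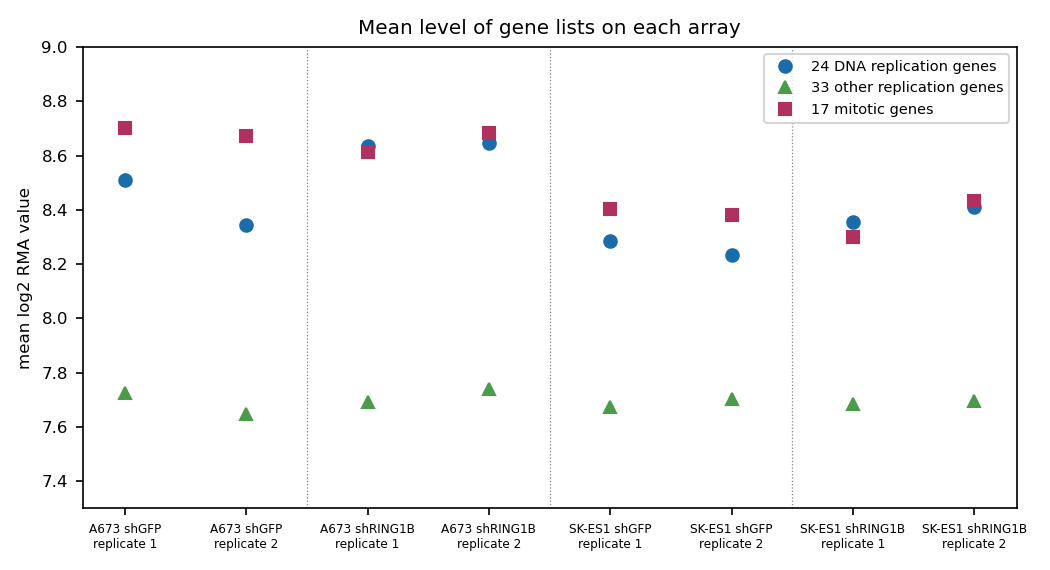
Mean log2 RMA value of the 24 replication genes (circles), the 33 other replication genes (triangles) and 17 mitotic genes (squares) on each of the 8 arrays. The circles stand at 8.51 and 8.34 on the A673 shGFP arrays and at 8.64 and 8.65 on the shRING1B arrays, while the squares lie between 8.61 and 8.70 in A673.

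Under the control hairpin limma called 4 of the 24 genes between the lines, a smaller share than the 30.7% called over all genes. Of the 4, 3 were lower in SK-ES1 and 1 higher, against 17% and 13.7% of all genes. The largest difference was GINS4, a subunit of the GINS complex, at 7.19 and 7.26 on the A673 shGFP arrays and 6.29 and 5.98 on the SK-ES1 shGFP arrays. The log2 difference was -1.09 (standard error 0.139, limma adjusted p = 0.000199). Its other probe set, at a mean level of 3.75 below the array medians, differed by -0.36, and the mean of both by -0.73 (limma adjusted p = 0.00166). UHRF1 stood at 8.72 and 8.58 in A673 and 8.16 and 7.95 in SK-ES1, a difference of -0.59 (limma adjusted p = 0.00597). CDC6 stood at 7.94 and 7.77 against 7.26 and 7.33, a difference of -0.56 (limma adjusted p = 0.00428). FEN1 was the gene higher in SK-ES1, at 7.79 and 7.72 against 7.41 and 7.16, a difference of 0.47 (limma adjusted p = 0.0169). In all 4 genes the arrays of the lines did not overlap.

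The comparison of the lines under shRING1B shares no array with that under shGFP. It uses the same 2 lines and the same estimate of spread, taken from all 8 arrays. On the probe sets used it gave the same direction for these 4 genes. GINS4 stood at 7.17 and 7.24 in A673 and 6.08 and 6.34 in SK-ES1, a difference of -0.99 (limma adjusted p = 0.000355). Its other probe set differed by 0.09 there, in the opposite direction, and the mean of both by -0.45 (limma adjusted p = 0.0216). UHRF1 stood at 8.98 and 8.89 against 8.29 and 8.08, CDC6 at 7.90 and 7.83 against 7.38 and 7.50, and FEN1 at 7.33 and 7.45 against 7.91 and 8.04, with no overlap of the lines. UHRF1 differed by -0.75, CDC6 by -0.42 and FEN1 by 0.58, with limma adjusted p-values of 0.00145, 0.0192 and 0.00543. A further 5 genes were called there, all lower in SK-ES1, with CDT1 at -0.69, GINS2 at -0.78, E2F2 at -0.53, MCM10 at -0.49 and RRM1 at -0.36. The same 5 differed by -0.23, -0.47, -0.21, -0.15 and -0.27 under shGFP, where limma called none of them. RRM1 stood at 8.34 and 8.35 on the A673 shRING1B arrays and at 7.99 and 7.97 on those of SK-ES1, and at 8.29 and 8.10 against 7.90 and 7.94 under shGFP. MCM10 stood at 8.33 and 8.36 on the SK-ES1 shRING1B arrays and at 8.36 and 8.29 on the shGFP arrays. GINS2 stood at 8.08 and 8.05 on the SK-ES1 shGFP arrays. For RRM1 and MCM10 the arrays of the lines did not overlap under shRING1B. The background under shRING1B was 31.4% of all genes called, and 17.7% called lower. Both SK-ES1 arrays lay above both A673 arrays in 5 of the 24 genes under shGFP and in 2 under shRING1B, against 32.3% and 31.3% of all genes. Both lay below in 12 and 16, against 32.6% and 32.4%. This comparison was added after the data were seen.

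The MCM2 to MCM7 genes did not pass the test between the lines under either hairpin, with differences of -0.30 to 0.06 under shGFP and -0.29 to 0.15 under shRING1B. MCM6 was called lower in SK-ES1 under shGFP with the trended and robust model (adjusted p = 0.0112), with the signal filter (adjusted p = 0.0479) and with centring on housekeeping genes (adjusted p = 0.0043). That centring also called MCM3 (adjusted p = 0.0222) and MCM7 (adjusted p = 0.0232) lower. Under shRING1B the trended and robust model called MCM6 (adjusted p = 0.0145) and MCM7 (adjusted p = 0.04) lower, and the centring called MCM6 (adjusted p = 0.0417). Under shGFP 17 of the 24 genes lay below 0 with a median of -0.172, against 0.0092 over all genes. Without A673 shGFP replicate 1 that median was -0.107, with 9 genes above 0, and without replicate 2 it was -0.245, with 5 above 0. Mitotic genes lay on the same side, with 16 of 17 below 0 and 6 called lower, against 17% of all genes called lower. AURKB, the kinase of the chromosomal passenger complex, differed by -0.83 (limma adjusted p = 0.000507). Among the 33 other replication genes 4 were called higher in SK-ES1 and 6 lower, against 13.7% and 17% of all genes. The calls were led by DSCC1 at 1.06 and E2F7 at 0.75. Centring on housekeeping genes moved the median of all genes to -0.301 and that of the 24 to -0.482, with 15 called lower. FEN1 was then no longer called (limma adjusted p = 0.394), while the calls over all genes went from 4572 to 5768. Of the 5 housekeeping genes, 2 were themselves called between the lines under shGFP. GAPDH differed by -0.58 and TBP by 0.42 (limma adjusted p = 0.0038 and 0.0128). Without A673 shGFP replicate 2 FEN1 had a limma adjusted p of 0.145, without SK-ES1 shGFP replicate 1 of 0.0914 and without replicate 2 of 0.0524. UHRF1 missed the threshold without A673 shGFP replicate 1 (0.0524) or SK-ES1 shGFP replicate 2 (0.0541), while GINS4 and CDC6 kept their calls with each array left out.

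**Figure D5:**
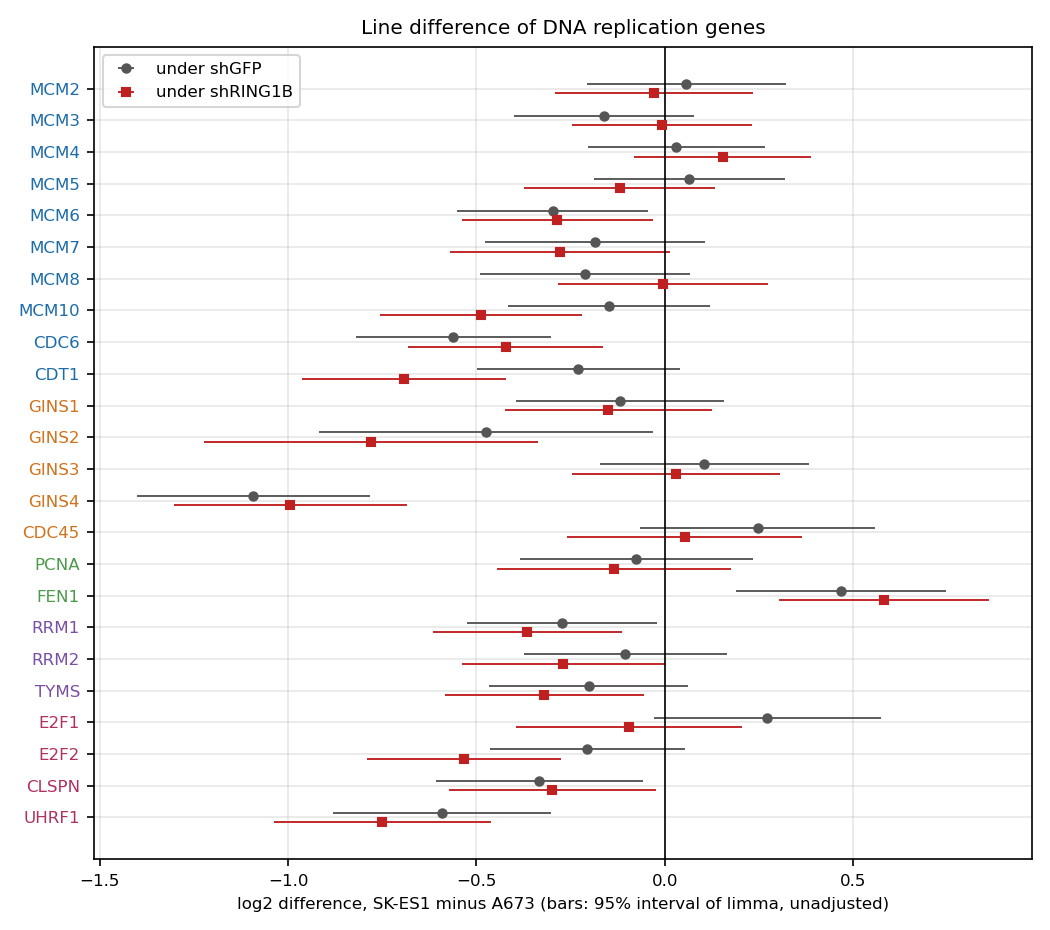
Log2 difference between the lines, SK-ES1 minus A673, for each of the 24 genes under shGFP (grey circles) and shRING1B (red squares), with bars for the 95% interval from limma without adjustment; gene names are coloured by role as in the plot of levels. GINS4 stands at -1.09 and -0.99, FEN1 at 0.47 and 0.58, and the MCM2 to MCM7 genes between -0.30 and 0.15.

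The 4 genes called between the lines under shGFP were also set beside their neighbours on the chromosome, chosen after the values were seen. Of the 10 nearest measured protein-coding genes around GINS4, from ADAM18 to RNF170, the median line difference under shGFP was 0.0936, with 1 called higher and 2 lower. Around CDC6, from CSF3 to KRT24, it was 0.142, around UHRF1, from DPP9 to MICOS13, -0.0326, and around FEN1, from SDHAF2 to BEST1, 0.103. CDC6 and UHRF1 lay below the lowest of their neighbours, which stood at -0.32 and -0.28. GINS4 and FEN1 lay within the range of theirs, which ran down to -1.52 and up to 0.92. Of the further 5 genes called under shRING1B, RRM1 and MCM10 had neighbours with median line differences under shRING1B of -0.00288 and 0.144, and E2F2 one of -0.0683. Those around GINS2 and CDT1 had medians of -0.152 and -0.347, with 4 of 10 called lower around each. The changes were also read by E2F match. The 16 genes with a match had a median change of 0.247 in A673 and 0.127 in SK-ES1, and the 5 without had 0.155 and 0.0601. In A673 the 16 ranged from -0.15 to 0.53 and the 5, all above 0, from 0.10 to 0.50. A difference between the 16 and the 5 was not tested. Over the 467 other tested genes with a match the medians were 0.00517 and -0.013. Of the 467, 4 were called higher and 16 lower in A673 and none in SK-ES1. In A673 0.705% of all genes were called higher and 3.04% lower. Of the 10261 other tested genes with a window and no match, 65 were called higher and 314 lower in A673.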

How the data were processed

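RNA of 2 Ewing sarcoma lines with a hairpin against either of 2 targets was measured on 8 arrays, in 4 groups of 2 taken from the labels. Replicate numbers follow accession order and only name an array. The authors deposited 1 log2 value per probe set (48144) and array. Per the submitters' processing notes these log2 values were made with RMA and limma, without stated versions. The array annotation gave 16098 probe sets a single symbol, and each gene was read from its probe set with the highest mean. Signal over background is unknown without scanner output, and precision is limited by the number of arrays. A model with 4 group means was fitted to all 14884 named genes with limma 3.58.1 in R 4.3.3 (4 residual and 6 prior degrees of freedom) and checked on simulated arrays. P-values are two-sided, adjusted by Benjamini-Hochberg over all genes, and called under 0.05. Other cell cycle lists and a housekeeping list served for comparison. Values in every array are given for called genes, the genes with the smallest p and MCM2 to MCM7, and the rest by range and count. Genes and lists were chosen with earlier results of these data known. Alternatives changed the normalization, variance model, probe set rule, filter and arrays. Promoter windows are RefSeq's on GRCh38.p14, and motifs were found by exact letters.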

Additional observations from a re-analysis of the deposited data

How the results depend on the processing

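No tried setting turned the median of the 24 genes in A673, in SK-ES1 or between the lines under shGFP. None turned the direction of a gene called in A673 or between the lines under shGFP. Centring on housekeeping genes did turn the median of all genes, to -0.104 in A673, 0.0506 in SK-ES1 and -0.301 between the lines under shGFP. For the difference of the effects, 8 of 24 genes lay above 0 as reported and 17 with that centring. In A673 the count of called genes among the 24 was 1 as reported, 5 with a trended and robust variance model (MCM10, CDT1, CDC45, E2F1 and E2F2), 4 when only genes above the median of all probe sets were tested, 0 with centring on housekeeping genes, 0 when just the A673 arrays were fitted and 0 to 0 with single arrays left out. The calls over all genes were 557, 1052, 767, 591, 213 and 101 to 434 in the same order. For the mean effect the count was 0 as reported, 6 with the trended and robust model and 1, CDC45, with the signal filter, beside 202, 481 and 339 of all genes. Between the lines under shGFP it was 4 as reported, 15 with centring on housekeeping genes, 7 with the trended and robust model, 9 under shRING1B (chosen after seeing the data) and 2 to 4 with single arrays left out, beside 4572, 5768, 4964, 4677 and 3160 to 4674 of all genes. The median line difference moved from -0.172 to -0.482 with centring on housekeeping genes. In SK-ES1 and for the difference of the effects limma called 0 of the 24 in every alternative tried. A fit of only the compared arrays was not run for the mean effect or the difference, which need all groups. No paired analysis was possible because the labels give no replicate numbers that groups share. With a single array in a group, that array is assumed to vary like the other groups. The cause of these shifts was not tested, and 2 arrays per group limit what could be called.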
